A study of Homo sapiens with 6 samples.

Results

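The 10 genes described here encode the core enzymes that remove superoxide and hydrogen peroxide in the cytosol, the peroxisome and the mitochondrion, namely the superoxide dismutases SOD1 and SOD2, catalase (CAT), the peroxiredoxins PRDX1, PRDX2, PRDX3 and PRDX5, the thioredoxins TXN and TXN2, and the glutathione peroxidase GPX1. They were chosen by gene symbol, and all 10 were found among the 19845 symbols of the count table and passed the filter on low counts, which left 11861 genes to test. RNA was sequenced from 6 cultures of Molm13, a human acute myeloid leukemia line with a rearranged MLL gene, all of which expressed Cas9, received a guide by lentivirus in the ipUSEPR vector and were selected in 1.0 ug/ml puromycin. In 3 of them the cells carried sgCtrl guides, in the other 3 they carried sgCOX4I1 guides against COX4I1, a nuclear-encoded subunit of Complex IV, and each library had a guide of its own. Cells with different guides thus stand as replicates, nothing in the labels says whether they were transduced separately, and all come from a single cell line.

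Superoxide is formed where electrons leave the respiratory chain early. Superoxide dismutases turn it into hydrogen peroxide, SOD1 mainly in the cytosol and SOD2 in the mitochondrial matrix, and the peroxide is then reduced by catalase, peroxiredoxins and glutathione peroxidases. Peroxiredoxins are recycled by thioredoxin, which in turn takes electrons from NADPH through thioredoxin reductase, with TXN and TXNRD1 in the cytosol and TXN2 and TXNRD2 in the mitochondrion. Since Complex IV is the last enzyme of that chain, the comparison asks whether the mRNA of these enzymes differed between cells with sgCOX4I1 and cells with sgCtrl.

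The libraries held from 17241014 to 30861943 counts, and values below are CPM, counts per 1000000 of the TMM-normalized library size, unless TPM is named. COX4I1 itself was at 513, 502 and 463 CPM in sgCtrl #1, #2 and #3 and at 132, 378 and 133 CPM in sgCOX4I1 #1, #2 and #3, a log2 fold change of -1.21 (SE 0.29, adjusted p = 0.0512 from edgeR) that was -1.89 without sgCOX4I1 #2 (adjusted p = 3.37e-06 from edgeR). It stood at 26.7%, 76.7% and 27.0% of the sgCtrl mean in sgCOX4I1 #1, #2 and #3. The second sgCOX4I1 library had thus lost less of this mRNA, and results are also given without that library. The mRNA does not measure how much COX4I1 protein remained, which the paper examined by Western blot with 3 sgCOX4I1 guides. The libraries come from bulk cultures, where fewer cells of a kind and less RNA per cell cannot be told apart. The paralog COX4I2 had 0 counts in all 6 libraries, each of which allows at most 0.174 CPM from counting error. Several myeloid markers were abundant in every library (SPI1, CEBPA, PTPRC and LYZ among them). CD34 and CD14, looked up after the values were seen, were low, with at most 6 and 166 counts. The 12 myeloid markers summed to 3380 to 4190 CPM in sgCtrl and 3870 to 5080 in sgCOX4I1. Of these sums LYZ made up 1149 to 2100 and 2026 to 3104. The other 11 summed to 2069 to 2231 CPM in sgCtrl and 1829 to 2061 in sgCOX4I1, the opposite direction. Of the 11 tested, 4 had a log2 fold change above 0 and 7 below, and 1 was called, against 2.08% of all genes. This was MPO, the peroxidase of myeloid granules, which fell from 227 to 109 CPM in the mean (log2 fold change -1.06, adjusted p = 1.59e-05 from edgeR, the smallest of all genes). MPO and FLT3 (-0.23, adjusted p = 0.190 from edgeR) were lower without overlap, as were 10.4% of all genes. CD33 was higher without overlap (0.15, adjusted p = 0.377 from edgeR), as were 11.2% of all genes. LYZ was at 0.77 with overlapping groups (adjusted p = 0.0534 from edgeR). Of 12 erythroid markers, which matter here because red cell precursors are rich in CAT and PRDX2, 8 were at 0 in all libraries, HBA1, HBB and ALAS2 included, and the sum of 14.2 to 16.9 CPM in sgCtrl and 12.6 to 13.7 in sgCOX4I1 was almost all EPOR. The sum of 10 lymphoid markers was 72.8 to 75.6 CPM in sgCtrl and 82.6 to 87.1 in sgCOX4I1, nearly all from NKG7 and PAX5, with CD3D and CD3G at 0, and 8 stromal and epithelial markers, mostly PECAM1, summed to 185 to 210 and 198 to 230. The part of these differences in the results below was not tested.

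None of the 10 enzymes passed an adjusted p of 0.05 in edgeR's quasi-likelihood test, where 2.08% of all genes tested did (247 of 11861, 126 higher and 121 lower in sgCOX4I1). An unadjusted p under 0.05 was reached by 3 of the 10 (CAT, PRDX3 and PRDX1), all higher in sgCOX4I1, against 17.3% of all genes in either direction and 8.90% in that direction. DESeq2 called 1, CAT, where it called 3.79% of all genes, and limma-voom called 0 and 2.12%. CAT was also the 1 enzyme called with no filter on low counts (3.54% of all genes) and without sgCtrl #1 (4.66% of all genes). With a change of at least 2-fold as a further condition, 0 of the 10 and 0.202% of all genes were called. The estimates were small and mostly of the same sign, with 9 of 10 log2 fold changes above 0, a median of 0.14 over the 10 genes and a median of -0.0023 over all genes tested. Of all genes tested, 49.4% had a log2 fold change above 0. The 95% intervals of the 10 fold changes all lay between 0.807-fold and 1.38-fold, so that no interval reached the 2-fold change that the study's methods set as a threshold. Without sgCOX4I1 #2, edgeR again called 0 of the 10, 2 had an unadjusted p under 0.05, 8 were above 0, and 0.425% of the 12001 genes tested were called. The shared sign was weakest without sgCtrl #3, where 7 of the 10 were above 0 with a median of 0.10.

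**Figure D1:**
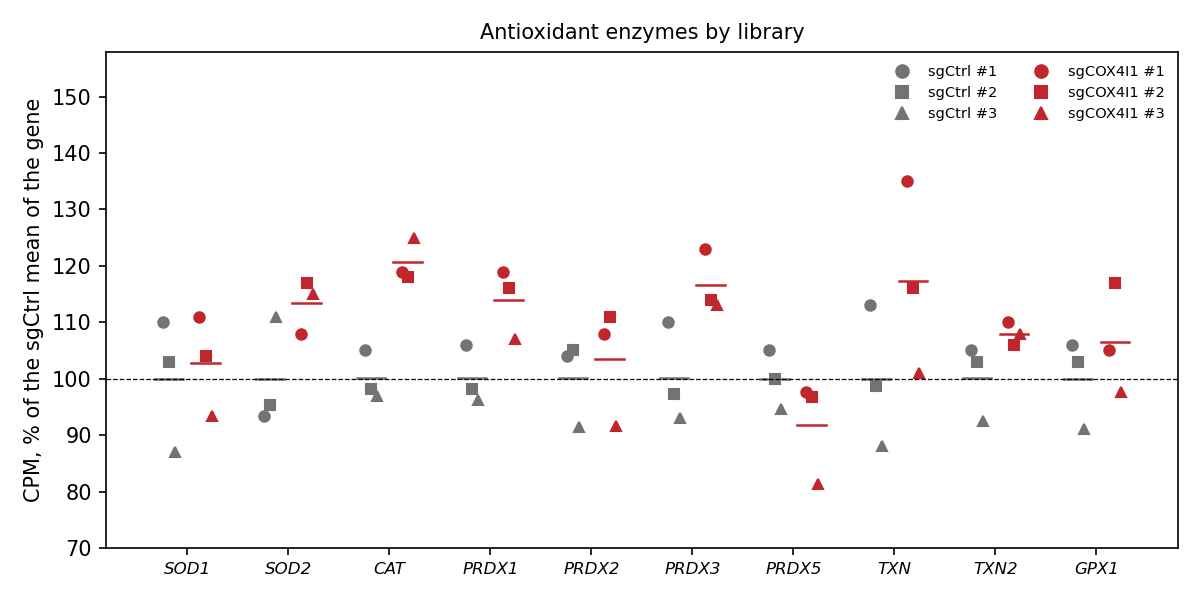
Level of each of the 10 antioxidant enzymes in each library, as percent of the gene's mean CPM in the 3 sgCtrl libraries (gray, sgCtrl; red, sgCOX4I1; marker shape, guide number; short lines, group means). Red points lie above all gray points for CAT, PRDX1, PRDX3 and TXN2, the mean of PRDX5 is below 100%, and the other genes overlap.

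Catalase came closest to the threshold. CAT, which breaks down hydrogen peroxide in peroxisomes without using NADPH directly, is encoded on chromosome 11 at 34438934-34472060 (plus strand, GRCh38, the build of every position given) with 13 exons in its canonical transcript. It was at 89.97, 84.22 and 83.08 CPM in sgCtrl #1, #2 and #3 and at 102, 101 and 107 CPM in sgCOX4I1 #1, #2 and #3. Every sgCOX4I1 library was above every sgCtrl library, and the spread within either group was smaller than the gap between them. The log2 fold change was 0.27 (SE 0.072), or 1.21-fold with a 95% interval of 1.08 to 1.34, and the adjusted p was 0.0700 from edgeR's quasi-likelihood test. An exact two-sided permutation test gave p = 0.1, the smallest that 3 libraries against 3 can give. The estimate was 0.29 without sgCOX4I1 #2 (adjusted p = 0.162 from edgeR), and over all alternatives it ran from 0.25 to 0.31 while the adjusted p ran from 0.00718 to 0.290. Without sgCtrl #1, the control with the highest CAT level, the adjusted p was 0.0399.

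Among the peroxiredoxins, PRDX1 and PRDX3 had levels in sgCOX4I1 above those in sgCtrl without passing the threshold, the estimate of PRDX2 was close to 0 and that of PRDX5 was below 0. PRDX3, the mitochondrial matrix peroxiredoxin, is encoded on chromosome 10 at 119167720-119178812 (minus strand). It was at 229.8, 204 and 195 CPM in sgCtrl #1, #2 and #3 and at 258, 239 and 237 CPM in sgCOX4I1 #1, #2 and #3. The groups did not overlap, although the highest control and the lowest sgCOX4I1 library were 6.90 CPM apart, and the log2 fold change was 0.22 (SE 0.080, adjusted p = 0.170 from edgeR). PRDX1, its cytosolic relative on chromosome 1 at 45510914-45542732 (minus strand), was at 284, 264 and 258 CPM in the sgCtrl libraries. In the sgCOX4I1 libraries it was at 320, 311 and 288 CPM, again above all controls, with a log2 fold change of 0.19 (SE 0.075, adjusted p = 0.211 from edgeR). Of the exonic bases of PRDX1, 29.8% are shared with MMACHC on the opposite strand, the strand setting of the counting is not given in the sources used here, and MMACHC had 15.6 ± 1.68 CPM in the controls and 16.6 ± 0.839 in the sgCOX4I1 libraries (SD, n = 3 each, adjusted p = 0.747 from edgeR).

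PRDX2, the cytosolic peroxiredoxin known from red cells, is encoded on chromosome 19 at 12796820-12801800 (minus strand) and had a mean of 73.9 ± 5.45 CPM among controls and 76.5 ± 7.58 among sgCOX4I1 libraries (SD, n = 3 each). Its lowest libraries were sgCtrl #3 and sgCOX4I1 #3, at 67.65 and 67.79 CPM, and the direction of its fold change of 1.03 (95% interval 0.904 to 1.18) turned without sgCtrl #3 or without sgCOX4I1 #2. PRDX5, found in mitochondria, peroxisomes and cytosol, is encoded on chromosome 11 at 64318121-64321811 (plus strand). It was at 88.9, 84.8 and 80.1 CPM in sgCtrl #1, #2 and #3 and at 82.6, 81.9 and 68.8 CPM in sgCOX4I1 #1, #2 and #3, the only gene of the 10 with an estimate below 0. The groups overlapped and sgCOX4I1 #3 was the lowest library by 11.3 CPM, with a log2 fold change of -0.12 (SE 0.086, adjusted p = 0.497 from edgeR) that was -0.041 without that library.

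The thioredoxins did not pass the threshold either. TXN, the cytosolic thioredoxin that reduces peroxiredoxins and ribonucleotide reductase, is encoded on chromosome 9 at 110243810-110256507 (minus strand). It was at 206, 179 and 159.9 CPM in sgCtrl #1, #2 and #3 and at 245, 210.4 and 184 CPM in sgCOX4I1 #1, #2 and #3. Library #1 had the highest and library #3 the lowest value in both groups, the groups overlapped, and the SD within groups, 12.7% and 14.2% of the mean, was the widest relative spread among the 10 genes. The log2 fold change was 0.23 (SE 0.11, adjusted p = 0.294 from edgeR), and it was 0.12 without sgCOX4I1 #1 and 0.15 without sgCtrl #3. In the annotation 7 processed pseudogenes bear the name of TXN, the most among the 10 genes, of which CAT alone has none, and how the counting treated reads that match a gene and its copy is not given in the sources used here. TXN2, the mitochondrial thioredoxin on chromosome 22 at 36467046-36481640 (minus strand), was at 107, 105 and 94.5 CPM in sgCtrl and at 113, 108 and 109.8 CPM in sgCOX4I1. All 3 sgCOX4I1 libraries were above the controls, the nearest by 1.39 CPM, and the fold change was 1.08 (95% interval 0.966 to 1.21, adjusted p = 0.479 from edgeR), with a log2 fold change of 0.11 that was 0.059 without sgCtrl #3.

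Of the superoxide dismutases, SOD2 was the one with the larger estimate. SOD2, the manganese enzyme of the mitochondrial matrix, is encoded on chromosome 6 at 159669069-159762529 (minus strand). It was at 89.8, 91.7 and 107 CPM in sgCtrl #1, #2 and #3 and at 104, 112 and 111 CPM in sgCOX4I1 #1, #2 and #3. Unlike the other 9 genes, it was highest in sgCtrl #3 among the controls, and that control lay above sgCOX4I1 #1. The log2 fold change was 0.18 (SE 0.083, adjusted p = 0.294 from edgeR), or 0.26 without sgCtrl #3 (adjusted p = 0.136 from edgeR). SOD1, the copper and zinc enzyme on chromosome 21 at 31659666-31668931 (plus strand), ran from 92.1 to 116 CPM in sgCtrl and from 98.9 to 118 CPM in sgCOX4I1. The groups overlapped almost fully, the fold change was 1.03 (95% interval 0.893 to 1.19), and its direction turned without sgCtrl #3 or without sgCOX4I1 #1. GPX1, a selenium-containing peroxidase of cytosol and mitochondria that uses glutathione, is encoded on chromosome 3 at 49357174-49358605 (minus strand) and ran from 397 to 462 CPM in sgCtrl and from 426 to 509 CPM in sgCOX4I1. Its fold change was 1.06 (95% interval 0.932 to 1.21), the log2 fold change of 0.088 was 0.026 without sgCtrl #3 and 0.017 without sgCOX4I1 #2, and 39.9% of its exonic bases are shared with another annotated gene on the same strand that has no row in the count table.

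**Figure D2:**
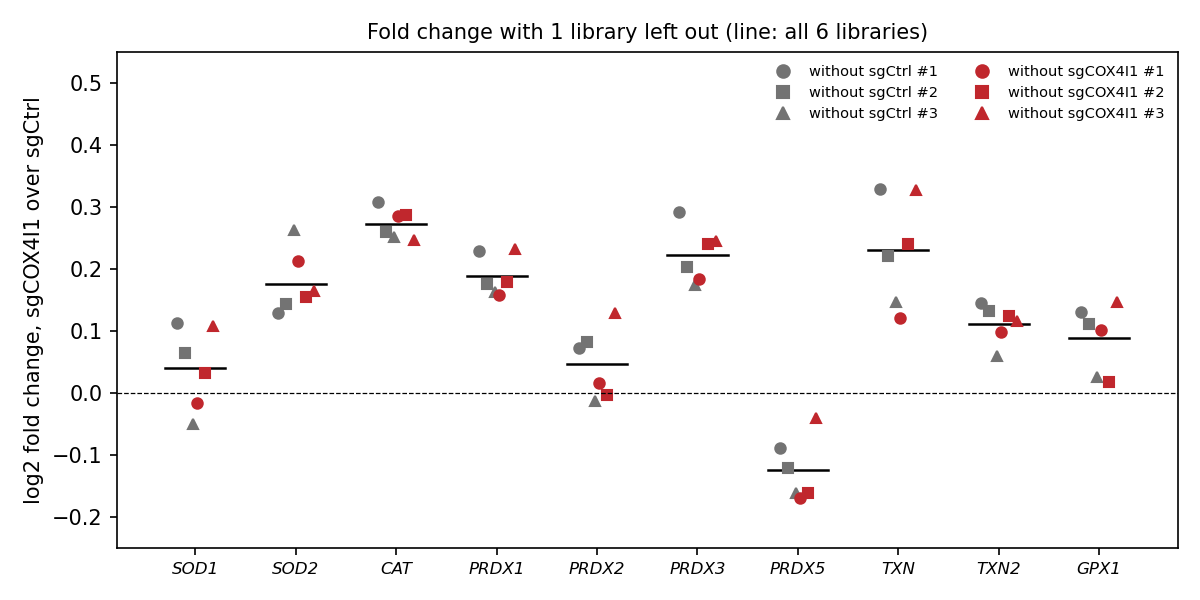
Log2 fold change of each enzyme (sgCOX4I1 over sgCtrl, edgeR) with all 6 libraries (black line) and with 1 library left out (points; color and shape name the library left out). CAT stays between 0.25 and 0.31, TXN moves between 0.12 and 0.33, and SOD1 and PRDX2 cross 0.

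For 4 of the 10 enzymes (CAT, PRDX1, PRDX3 and TXN2) the libraries of the groups were separate, all with sgCOX4I1 above, as were 21.6% of all genes tested, 11.2% with sgCOX4I1 above and 10.4% with it below. In the mitochondrial matrix, SOD2, PRDX3 and TXN2 had log2 fold changes of 0.18, 0.22 and 0.11, and their cytosolic counterparts SOD1, PRDX1 and TXN had 0.040, 0.19 and 0.23. The TPM ratio of PRDX3 to PRDX1 was 0.388 ± 0.0140 in sgCtrl and 0.398 ± 0.0138 in sgCOX4I1, and that of SOD2 to SOD1 was 0.101 ± 0.0227 and 0.109 ± 0.0130 (SD, n = 3 each), so that neither pair differed by more than its spread. The TPM ratio of PRDX3 to PRDX5, the 2 mitochondrial peroxiredoxins, was 0.658, 0.611 and 0.619 in sgCtrl and 0.793, 0.742 and 0.876 in sgCOX4I1 (exact two-sided permutation p = 0.1, the smallest possible). These ratios show unequal differences and not which of the 2 genes differed.

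Levels can be compared between genes only per length, and for this the counts were divided by the exonic bases of each gene and scaled to TPM. GPX1 was highest at 1151 ± 90.5 TPM in sgCtrl (SD, n = 3), followed by TXN at 679.5 ± 85.6 and PRDX1 at 603 ± 29.6, whose ranges over the 3 controls overlapped. PRDX5 came next at 372 ± 19.1 TPM, and PRDX3, TXN2 and SOD1, at 234 ± 20.1, 234 ± 15.3 and 203 ± 23.8 TPM, could not be ordered, since neighbors overlapped. PRDX2 was at 137 ± 10.1, CAT at 90.6 ± 3.83 and SOD2 at 20.0 ± 1.98 TPM. From GPX1 down to PRDX2, these 8 genes lay above 91.3% or more of the 11332 tested genes with a length, CAT above 85.6% and SOD2 above 48.6%. The order depends on the length used, and the exonic bases of SOD2 add up to 18144, against 860 for PRDX5. With the length of the canonical transcript, PRDX1 (552 TPM) passed TXN (478 TPM), PRDX3 and SOD1 passed PRDX5, and TXN2 fell behind PRDX2, while GPX1 remained first and CAT and SOD2 last. The canonical transcript of SOD2 is itself 14167 bases long, so under both lengths its last place rests on a long annotated transcript. In CPM, not divided by length, SOD2 had a sgCtrl mean of 96.2, against 85.8 for CAT and 73.9 for PRDX2. Which SOD2 transcripts the cells used was not tested.

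**Figure D3:**
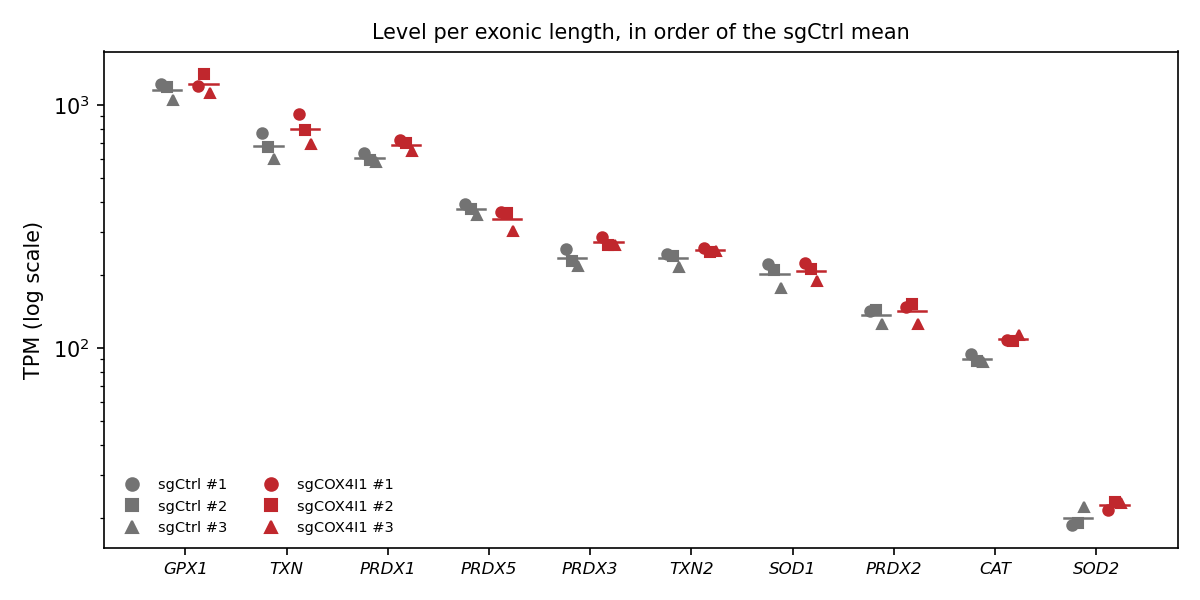
Level of the 10 enzymes in TPM (log scale, counts per exonic base scaled to 1000000) in the 3 sgCtrl (gray) and 3 sgCOX4I1 (red) libraries, ordered by the sgCtrl mean (short lines, group means; marker shape, guide number). GPX1 is highest at about 1151 TPM and SOD2 lowest at 20.0 TPM in sgCtrl.

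Among the genes that serve these enzymes, a few passed the test. Of 21 reductases, inhibitors, chaperones and repair enzymes around them, 18 were tested, and edgeR called 3, of which TXNRD1 and SESN2 rose and TXNIP fell, against 1.06% of all genes called higher and 1.02% called lower. The median log2 fold change of the 18 was 0.075. The list was chosen with earlier results of these data known, and so its count of calls is no independent evidence. TXNRD1, the cytosolic thioredoxin reductase that feeds electrons to TXN, was at 137, 127 and 134 CPM in sgCtrl and at 176, 214 and 188 CPM in sgCOX4I1. Its groups were far apart, with a log2 fold change of 0.54 (SE 0.082, adjusted p = 0.00461 from edgeR) that was 0.46 without sgCOX4I1 #2 and 0.51 (adjusted p = 0.0889) without sgCtrl #2. TXNIP, which binds and inhibits thioredoxin, was at 263, 243 and 227 CPM in sgCtrl and at 159, 137 and 155 CPM in sgCOX4I1. It fell by 0.70 on the log2 scale (SE 0.082, adjusted p = 0.00112 from edgeR) and passed an adjusted p of 0.05 under all 13 alternative fits, though it fell short of a 2-fold change. SESN2, a stress-induced sestrin that restrains mTORC1, rose from 26.45 ± 0.826 to 42.4 ± 2.81 CPM (SD, n = 3 each), a log2 fold change of 0.68 (SE 0.089, adjusted p = 0.00212 from edgeR) that was 0.66 without sgCOX4I1 #2.

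Against TXN itself, the TPM ratio of TXNIP was 0.358, 0.380 and 0.398 in sgCtrl and 0.182, 0.182 and 0.235 in sgCOX4I1 (exact two-sided permutation p = 0.1, the smallest possible). The ratio of TXNRD1 to TXN was 0.111 ± 0.0134 in sgCtrl and 0.138 ± 0.0260 in sgCOX4I1 (SD, n = 3 each), with overlapping groups (exact two-sided permutation p = 0.2). The mean log2 ratio was 0.31 higher in sgCOX4I1. With 3 libraries in each group this does not settle whether the reductase and its substrate changed unequally. The mitochondrial reductase TXNRD2, looked up after the values were seen, had 28.3 ± 0.467 CPM with control guides and 25.05 ± 0.743 with sgCOX4I1 (SD, n = 3 each), with a log2 fold change of -0.18 (SE 0.089, adjusted p = 0.326 from edgeR). Every sgCOX4I1 library was below every control for TXNRD2, as for 10.4% of all genes tested. CCS, the copper chaperone of SOD1, and GSR, the glutathione reductase, had adjusted p-values of 0.601 and 0.387 from edgeR and were looked up in the same way.

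**Figure D4:**
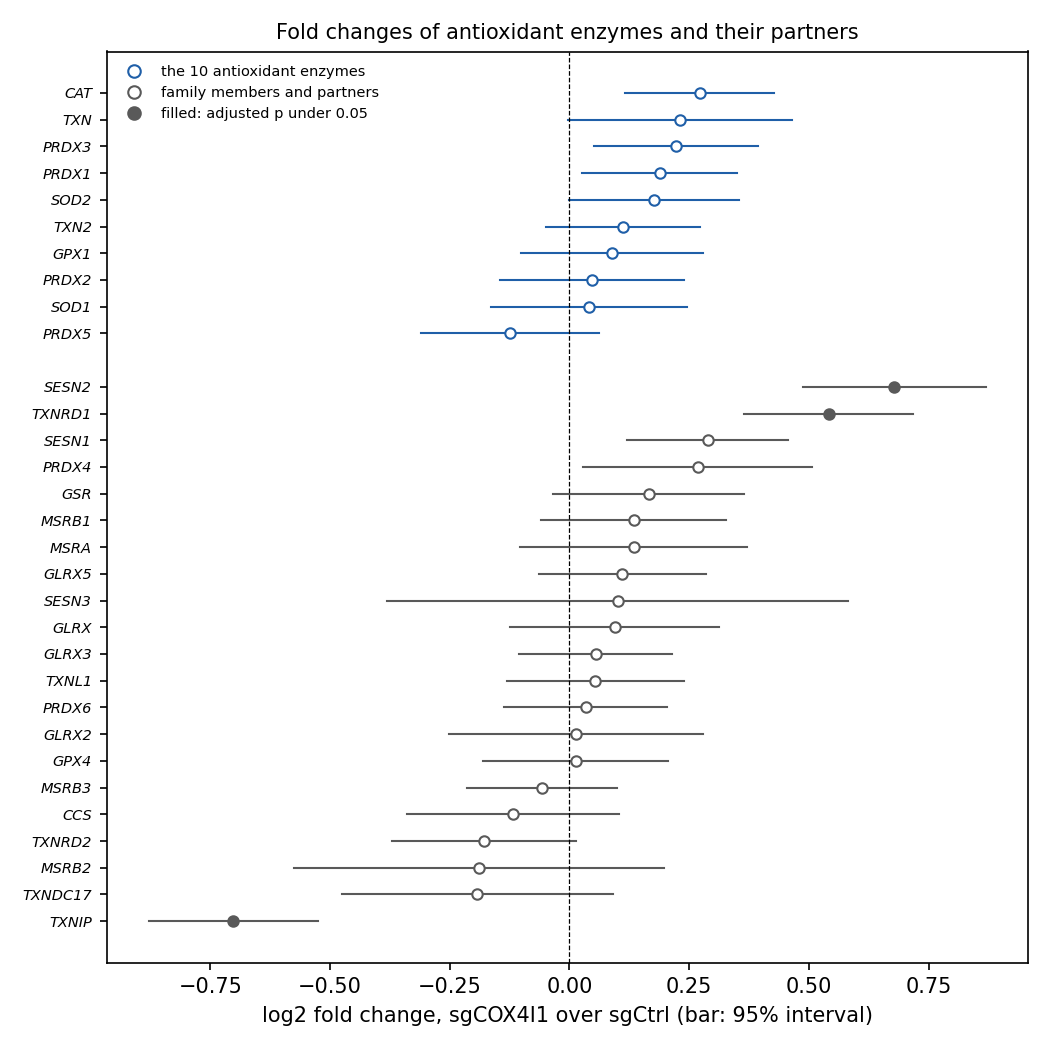
Log2 fold change (sgCOX4I1 over sgCtrl, edgeR) with its 95% interval for the 10 enzymes (blue) and for the tested family members and partners (gray), where filled circles passed an adjusted p of 0.05. SESN2, TXNRD1 and TXNIP are filled, at 0.68, 0.54 and -0.70, and all 10 enzymes are open, between -0.12 and 0.27.

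Of 8 further members of the same enzyme families, 3 were tested and edgeR, DESeq2 and limma-voom called 0 (edgeR called 2.08% of all genes), with 1 of the 3 at an unadjusted p under 0.05, against 17.3% of all genes. PRDX4, the peroxiredoxin of the endoplasmic reticulum, had 26.2 ± 2.06 CPM among controls and 31.6 ± 4.08 among sgCOX4I1 libraries (adjusted p = 0.228 from edgeR). PRDX6 had 228 ± 17.8 and 233 ± 13.0 CPM, and GPX4, the peroxidase of membrane lipids, had 274 ± 28.8 and 276 ± 21.9 CPM (SD, n = 3 each). The direction of both turned when single libraries were left out. SOD3, GPX2 and GPX8 had 0 counts in every library.

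The supply of glutathione and NADPH, on which thioredoxin and glutathione peroxidases draw, was covered by 21 genes, of which 20 were tested. Of these, 15 were above 0 (49.4% of all genes) and 4 rose (1.06% of all genes), namely SLC7A11, ME1, MTHFD2 and SLC3A2, with none called lower (1.02% of all genes), and the median log2 fold change was 0.20. At an unadjusted p under 0.05 there were 12 of the 20 higher and 0 lower, against 8.90% and 8.41% of all genes. DESeq2 called 6 higher and 0 lower, where it called 215 higher and 234 lower of all 11861 genes. For limma-voom these were 4 and 0, against 125 and 127 of all 11861 genes. SLC7A11, the cystine transporter, and its partner chain SLC3A2 had log2 fold changes of 1.02 (SE 0.15) and 0.39 (SE 0.085). ME1, the cytosolic malic enzyme that makes NADPH, went from 1.52 ± 0.728 to 5.61 ± 1.27 CPM, and MTHFD2, of the mitochondrial folate pathway, from 189 ± 11.5 to 253 ± 7.57 CPM (SD, n = 3 each). Without sgCOX4I1 #2 only 1 of the 4, SLC7A11, was still called, and without sgCtrl #2 none was, with adjusted p-values from 0.0934 to 0.134 from edgeR. The list held genes that had been seen to rise in earlier results of these libraries, and so its count is no independent evidence of a direction.

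GPX1 and the thioredoxin reductases contain selenocysteine. Of 8 genes listed for selenoprotein synthesis, edgeR, DESeq2 and limma-voom called 0 (edgeR called 2.08% of all genes). An unadjusted p under 0.05 was reached by 0 of the 8, against 17.3% of all genes. The log2 fold changes of the 8 lay between -0.11 (TRNAU1AP) and 0.076 (SEPHS1), and SEPHS2 was at -0.078. Of 15 transcription regulators of antioxidant genes, 14 were tested and edgeR, DESeq2 and limma-voom called 0 (edgeR called 2.08% of all genes), while 2 had an unadjusted p under 0.05 in each direction, against 8.90% of all genes higher and 8.41% lower. FOXO4, NFKB1 and MAFK had the smallest adjusted p-values (0.134, 0.159 and 0.193 from edgeR), with log2 fold changes of -0.35, 0.24 and -0.27. NFE2L2, which encodes NRF2, the regulator of many of these genes, had 53.0 ± 5.26 CPM among controls and 62.3 ± 5.69 among sgCOX4I1 libraries (SD, n = 3 each, adjusted p = 0.215 from edgeR) and was looked up after the values were seen. The mRNA says nothing of NRF2 protein, through which its activity is mainly set.

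NRF2 binds the antioxidant response element, so the start regions of these genes were searched for it in RefSeq promoter sequences (GRCh38.p14, 250 bases before to 50 after the start site). The letters TGACNNNGC on either strand occur in 13.3% of all 35116 promoters of the table. They occur in 0 of the 7 enzymes with an entry and in 6 of 17 genes of glutathione and NADPH supply. Of the reductases and partners 3 of 18 hold them, namely TXNRD1, CCS and TXNL1. CCS and TXNL1, named after their values were seen, were not called. SESN2 and TXNIP, the other called partners, hold no match. The lists were chosen with earlier results of these data known, and a relation of the matches to the fold changes was not tested. SOD1, PRDX1 and TXN2 have no entry. The C/EBP-ATF element TTGCATCA, held by 0.866% of all promoters, occurs in 0 of the 7, and the E-box CACGTG, held by 7.26%, occurs in 2, PRDX3 and GPX1. No match says only that these letters are not in this window. The bases from 250 before the start site up to it are shown 5′ to 3′ for CAT (chr11:34438684-34438934, plus strand), the enzyme nearest to the threshold, for TXN (chr9:110256507-110256757, minus strand), and for TXNRD1 (chr12:104215529-104215779, plus strand), the reductase of TXN that rose. Capitals mark the matches to TGACNNNGC, of which TXNRD1 holds 2 that do not overlap, the first starting at base -99 on the plus strand and the second at base -8 on the minus strand, counted from the start site at 1.
CAT: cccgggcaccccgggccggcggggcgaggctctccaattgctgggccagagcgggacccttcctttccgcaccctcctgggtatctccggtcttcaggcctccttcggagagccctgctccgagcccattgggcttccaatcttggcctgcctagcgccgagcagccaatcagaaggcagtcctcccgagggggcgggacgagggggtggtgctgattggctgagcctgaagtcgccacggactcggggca
TXN: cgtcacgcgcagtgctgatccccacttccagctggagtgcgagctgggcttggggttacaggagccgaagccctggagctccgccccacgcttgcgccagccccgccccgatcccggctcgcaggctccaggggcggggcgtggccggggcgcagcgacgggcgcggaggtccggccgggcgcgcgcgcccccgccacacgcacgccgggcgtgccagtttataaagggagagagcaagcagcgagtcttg
TXNRD1: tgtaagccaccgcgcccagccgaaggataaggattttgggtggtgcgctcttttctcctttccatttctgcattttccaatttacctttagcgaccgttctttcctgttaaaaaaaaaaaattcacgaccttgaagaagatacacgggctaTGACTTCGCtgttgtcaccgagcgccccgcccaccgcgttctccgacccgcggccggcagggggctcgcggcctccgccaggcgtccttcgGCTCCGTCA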

How the data were processed

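RNA-seq counts of 6 Molm13 libraries expressing Cas9 were used, 3 with sgCtrl and 3 with sgCOX4I1. The file deposited by the authors is a single matrix of raw counts (whole numbers) over 19845 gene symbols. Its columns were matched to samples by letter (C for sgCtrl, K for the knockout) and guide number. Per the labels the processing tools were bcl2fastq 2.20.0.422, STAR 2.6.0a and edgeR on GRCh38, whereas the study's methods name Bowtie2 and RSEM. How duplicates and strand were treated in counting is not given in the sources used here. The library kit was directional. No row holds unassigned reads.

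Counts were fitted in R 4.3.3 with edgeR 4.0.16 (TMM, its filter on low counts, quasi-likelihood test, no covariates) with 6 libraries in 1 fit. P-values were adjusted over 11861 genes (Benjamini-Hochberg), with 0.05 as the threshold for a call. Standard errors and 95% intervals were derived from the F statistic. Normalized CPM are per library, and exact permutation tests used log2 CPM with a prior count of 2, except for ratios. Since cultures are not described as independent, p-values measure only the spread between these libraries. Alternatives used DESeq2 1.42.0, limma 3.58.1 (voom), other scalings and filters, a replicate block and single libraries left out, and the canonical transcript length was added after the data were seen. Of the symbols, 18437 were matched to GENCODE 44 for position and length. The fit across genes was first tested on simulated counts. The floor of a 0 count is 3 counts and, like the other precision given by depth, covers counting error only.

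Members, lists and tests were chosen with earlier results of these data known. Named genes are the 10 enzymes, COX4I1 and COX4I2, of each pathway list every called gene and, in any case, the 3 lowest adjusted p-values, and of each marker list the most abundant genes. MPO, FLT3, CD33, genes given for an overlap or for 0 counts, and those marked in the text, were named after their values were seen.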

Additional observations from a re-analysis of the deposited data

How the results depend on the processing

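Over all genes tested, 247 were called, against 449 with DESeq2, 537 with no filter on low counts, 1408 (11.9%) with the replicate block and 24 with a change of at least 2-fold as well, and from 24 (without sgCtrl #2) to 561 (without sgCtrl #1) with single libraries left out; 51 were called without sgCOX4I1 #2 and 89 without sgCOX4I1 #3. Of the 10 enzymes, 1 was called with DESeq2 and 1 with no filter (CAT in both), 4 with the replicate block (CAT, PRDX1, PRDX3 and TXN) and from 0 to 1 with single libraries left out. Of the other family members, 1 was called higher with the block. Of the reductases and partners, 2 were called higher and 1 lower, 0 and 0 of them by at least 2-fold, and from 1 to 3 higher with single libraries left out. Of the genes of glutathione and NADPH supply, 4 were called higher, against 7 with no filter, 11 with the block, 2 by at least 2-fold and from 0 to 6 with single libraries left out. Of the transcription regulators, the block called 2 higher and 2 lower, and from 0 to 1 was called lower with single libraries left out. The cause of these shifts was not tested.

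The libraries share only their guide numbers. Deviations from the group means correlated at 0.382, -0.024 and 0.294 for numbers 1, 2 and 3 across genes. sgCtrl #2 correlated best with sgCOX4I1 #3 and not with its own number, though that value too was small (0.064). By these correlations over all genes the block was not taken as a pairing. Over the 10 enzymes alone the same-number correlations were 0.816, 0.465 and 0.642, which rest on few genes and were not taken as a pairing either. For 9 of the 10 enzymes the differences between libraries of the same number all had the same sign, SOD1 and PRDX2 included, with GPX1 the exception. The share of all genes with such differences was not computed, and whether the numbers mark pairs is not given in the labels. With the block the adjusted p from edgeR was 0.00718 for CAT, 0.0317 for PRDX1, 0.0140 for PRDX3 and 0.0113 for TXN. Directions turned for SOD1 without sgCtrl #3 (-0.050, the lowest value, the highest being 0.113) and without sgCOX4I1 #1 (-0.017), for PRDX2 without sgCtrl #3 (-0.013, highest 0.128) and without sgCOX4I1 #2 (-0.0029), for PRDX6 without sgCtrl #2 (-0.011, highest 0.097) and without sgCOX4I1 #1 (-0.0063), and for GPX4 without sgCtrl #3 (-0.0645, highest 0.0829) and without sgCOX4I1 #2 (-0.0522). Among the genes named by the rule, 18 values passed the threshold under an alternative and 10 no longer did, all in the same direction, and 315 kept both direction and side.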

Other observations

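The 10 enzymes shared an order of libraries within the groups that the comparison does not use. Among the sgCtrl libraries, sgCtrl #3 was the lowest for 9 of the 10 genes, SOD2 being the exception, while it was the lowest for 35.8% of all genes tested. Among the sgCOX4I1 libraries, sgCOX4I1 #3 was the lowest for 7 of the 10 (SOD1, PRDX1, PRDX2, PRDX3, PRDX5, TXN and GPX1), against 33.1% of all genes tested. The summed level of the 10 enzymes was 1750 CPM for sgCtrl #1, 1649 for #2 and 1534 for #3, and for sgCOX4I1 it was 1876 CPM (#1), 1864 (#2) and 1698 (#3), so that the groups overlapped and library #3 had the lowest sum in both. sgCOX4I1 #2, which kept 76.7% of COX4I1 mRNA, had nearly the same sum as sgCOX4I1 #1, which kept 26.7%. Single genes differed more between these libraries and in both directions. GPX1, the largest part of the sum, was at 509 CPM in sgCOX4I1 #2 and 456 in #1, and TXN was at 210 and 245. The mRNA does not measure the COX4I1 protein left, and a relation of the sum to its loss was not tested.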
